A study of Homo sapiens with 24 samples.

Results

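Non-muscle myosin II is the motor that pulls actin filaments past each other, and 9 of its genes were followed in SK-MES-1 cells, a human squamous cell lung carcinoma line, with and without TGFβ1. They are the heavy chains MYH9, MYH10 and MYH14, the regulatory light chains MYL9, MYL12A and MYL12B, the essential light chain MYL6, the light chain kinase MYLK and PPP1R12A, the subunit that targets the phosphatase to myosin. The genes were taken by name. All 9 had enough counts to be tested, among 17413 genes tested in the series.

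The 24 libraries came from an untreated arm and an arm stimulated with 2 ng/ml TGFβ1, at 0, 8, 24 and 48 h with 3 biological replicates for each arm and time. All cells, untreated ones included, were from this 1 cell line and had been serum-starved for 3 h beforehand. The authors' methods name a growth factor-depleted medium for the TGFβ1 stimulation as well. The libraries held 46613589 to 77964234 estimated counts. The names of the deposited tables hold 4 codes of unstated meaning. Each arm has a code shared by its 0 and 8 h libraries and another shared by its 24 and 48 h libraries. Arm and code cannot be told apart at any time point, and any comparison of 24 or 48 h with 0 or 8 h crosses codes. Changes from 0 to 8 h and from 24 to 48 h stay within the code of an arm. In both arms replicate 2 at 0 h and replicate 2 at 24 h stood apart from the other replicates, and calls that changed without these 4 libraries, a choice made after seeing the data, are given beside the result.

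Each molecule of myosin II carries a pair of heavy chains with an essential and a regulatory light chain on each. Phosphorylation of the regulatory chain by kinases such as MYLK switches the motor on and lets it assemble into filaments, and the phosphatase containing PPP1R12A switches it off. In epithelial cells the motor drives cell migration, tension at cell junctions and cytokinesis. MYL9 is best known from smooth muscle, while MYL12A and MYL12B are near-identical and widely expressed.

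The sequences that matter for reading these measurements are shown first, all from GRCh38. MYL6 has a 45-base alternative exon at chr12:56160626-56160670 (plus strand) that changes the end of the coding sequence. The last 26 coding bases are printed for both forms, with the 15 bases that differ in capitals, at chr12:56160626-56160651 with the exon and at chr12:56161387-56161412 without it.
MYL6 with the exon: CgTtTgtGAgGCATAtCctgTCGggG
MYL6 without the exon: AgCtCgtCCgCATGGtGctgAATggC
MYL12A and MYL12B lie next to each other on chromosome 18, and their coding sequences shared 491 identical bases of 516 in MYL12B. The longest run they have in common is printed because reads inside it could belong to either gene. It is 77 bases long and lies at chr18:3255769-3255845 in MYL12A and at chr18:3277788-3277864 in MYL12B, both on the plus strand.
MYL12A and MYL12B shared run: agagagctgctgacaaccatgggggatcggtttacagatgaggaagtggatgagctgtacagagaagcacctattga

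Promoter sequences came from RefSeq (GRCh38.p14, 250 bases before to 50 after a start), with 15 windows matched for 8 of the 9 genes, MYL9 being the one not matched. The windows of MYLK and MYH9 are shown because these genes had the lowest adjusted p between the arms among the 8. The MYLK window, at chr3:123620499-123620798 on the minus strand, lies inside the gene before the short transcript MYLK-215. It was the only window matched for MYLK. The long transcript MYLK-202 starts far from it, at chr3:123884332, and the bases before that start were not searched. The MYH9 window is at chr22:36387918-36388217, also on the minus strand. Both strands were searched for the CArG box, for CAGAC, for GGAATG, for TGANTCA and for CACCTG, and matches are in capitals.
MYLK window: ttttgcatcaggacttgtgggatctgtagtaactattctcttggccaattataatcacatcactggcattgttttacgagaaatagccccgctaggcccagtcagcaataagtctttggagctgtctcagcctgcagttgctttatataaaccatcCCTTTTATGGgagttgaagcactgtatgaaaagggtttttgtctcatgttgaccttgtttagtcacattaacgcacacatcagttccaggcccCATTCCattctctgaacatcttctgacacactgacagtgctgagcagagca
MYH9 window: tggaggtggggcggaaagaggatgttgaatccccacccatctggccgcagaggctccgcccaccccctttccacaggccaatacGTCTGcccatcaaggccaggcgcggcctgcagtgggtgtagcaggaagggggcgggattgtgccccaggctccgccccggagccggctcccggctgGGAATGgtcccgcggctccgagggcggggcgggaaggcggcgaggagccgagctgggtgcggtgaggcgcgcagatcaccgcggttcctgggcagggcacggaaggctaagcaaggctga
The MYLK window held a CArG box at -94 from the start and GGAATG, read on the other strand, at -1. The MYH9 window held CAGAC on the other strand at -166 and GGAATG at -70, and no matches overlapped in these 2 windows. Of all 35116 windows of this length, 1.29% held a CArG box, 45.3% CAGAC, 14.0% GGAATG, 7.71% TGANTCA and 20.6% CACCTG. A match is only a match of letters.

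On the scale of TPM, a transcript's length-corrected share of its library, MYL6, MYL12B and MYL12A had the highest group means, although MYL12A overlapped MYH9 in the TGFβ1 arm at 8 h. MYL6 lay at 1111 to 1362 TPM over the 24 libraries, MYL12B at 453 to 641, MYL12A at 367 to 626 and MYH9 at 288 to 394. PPP1R12A followed at 24.4 to 44.5 TPM, MYLK at 8.20 to 34.0, MYL9 at 6.80 to 35.9, MYH10 at 7.36 to 13.3 and MYH14 at 0.209 to 0.507. MYH9 therefore made up 96.1 to 98.1% of the heavy chain TPM in every library. At 0 h the order was the same in both arms, with MYL6 highest, then MYL12B, MYL12A, MYH9, PPP1R12A, MYLK, MYH10, MYL9 and MYH14. In the untreated arm at 0 h no neighbours in that order overlapped, whereas in the TGFβ1 arm MYLK overlapped MYH10 and MYH10 overlapped MYL9. By 48 h MYL12A stood above MYL12B in both arms, and MYL9 had passed MYH10 in both and MYLK in the TGFβ1 arm. In the untreated arm at 48 h MYLK and MYL9 overlapped, and in the TGFβ1 arm PPP1R12A and MYL9 did.

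**Figure D1:**
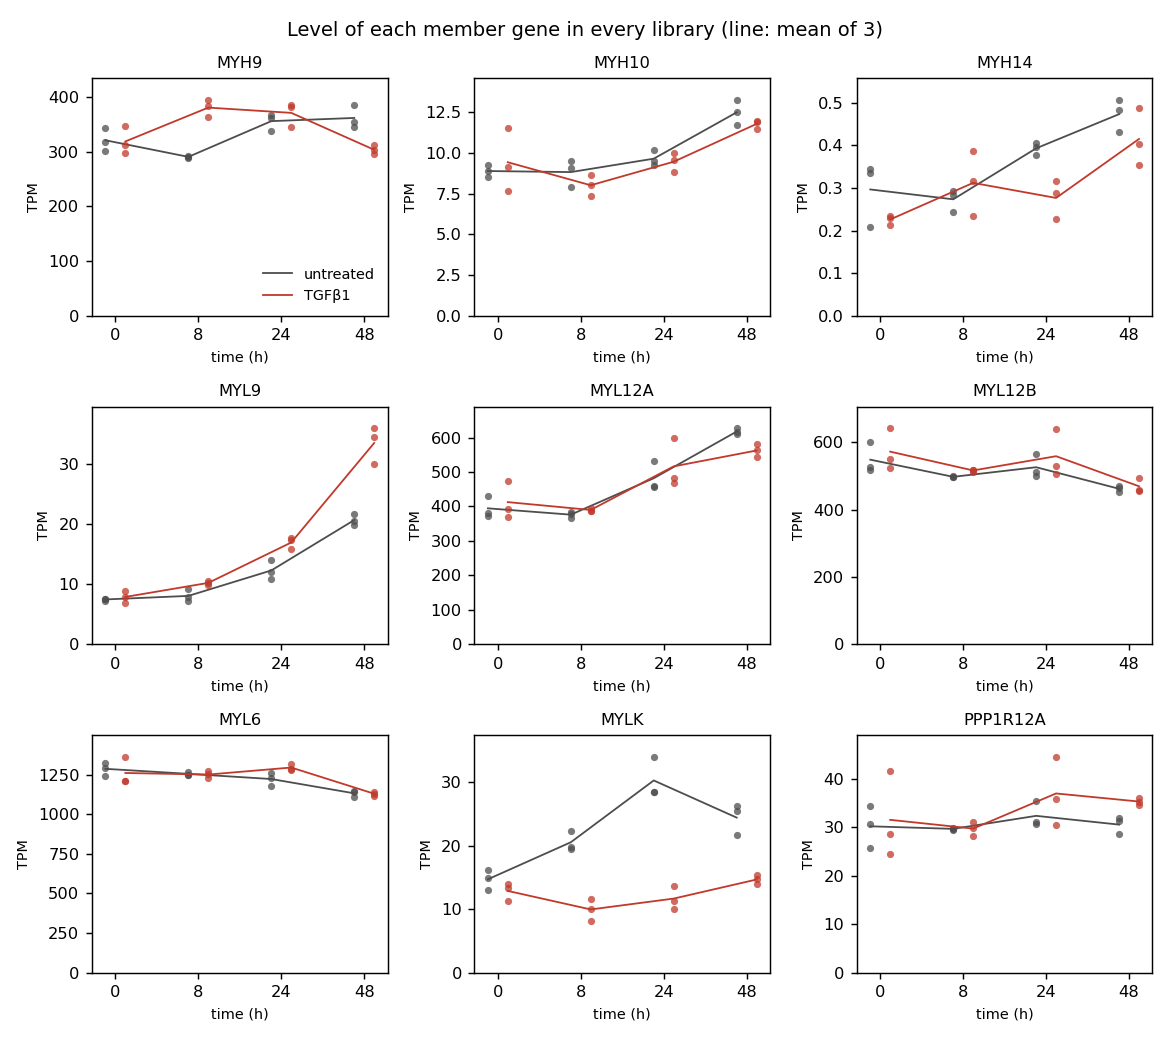
Level of each of the 9 genes in TPM (vertical axis, from 0) at 0, 8, 24 and 48 h (evenly spaced on the horizontal axis) in every untreated (grey) and TGFβ1 (red) library, with lines through the means of 3. MYLK is lower and MYL9 higher in all TGFβ1 libraries from 8 h on, and MYH9 is higher with TGFβ1 at 8 h and lower at 48 h.

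Over 8, 24 and 48 h, 4 of the 9 members differed between the arms, which were MYH9, MYH10, MYL9 and MYLK. This was the moderated F-test of limma voom with Benjamini-Hochberg adjustment over all genes and a threshold of 0.01, and 42.6% of all tested genes passed it. At 8 h 2 members were higher with TGFβ1 (MYH9 and MYL9) against 9.14% of all genes, and 1 was lower (MYLK) against 7.28%. At 24 h MYL9 was higher and MYLK lower, against 15.5% and 13.9% of all genes. At 48 h MYL9 was higher, against 16.2%, and MYH9, MYH10 and MYLK were lower, against 16.5%. At 0 h no gene, and so no member, passed in limma voom, with 0 members and 800 genes at an unadjusted p under 0.05, and no member passed in edgeR or DESeq2 either. TPM of the TGFβ1 libraries lay fully above the untreated ones at 0 h for 0 members against 1.68% of all genes, and fully below for 0 members against 5.3%.

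MYLK, the kinase that phosphorylates the regulatory light chains, showed the largest difference of the 9 genes, with a ratio of the mean TPM, TGFβ1 to untreated, of 0.485 at 8 h, 0.385 at 24 h and 0.601 at 48 h. In untreated cells it stood at 13.0, 16.2 and 14.9 TPM at 0 h and at 19.8, 19.5 and 22.4 TPM at 8 h. It stood there at 28.5, 34.0 and 28.5 TPM at 24 h and at 26.2, 25.4 and 21.6 TPM at 48 h. The untreated libraries thus reached their highest values at 24 h. With TGFβ1 the values were 13.3, 14.0 and 11.4 TPM at 0 h, 8.20, 10.1 and 11.7 TPM at 8 h, 10.1, 13.7 and 11.3 TPM at 24 h and 15.4, 14.7 and 14.0 TPM at 48 h. The arms overlapped at 0 h and were fully apart at the 3 later times. On the log2 scale of the counts the difference, TGFβ1 minus untreated, was -1.13 ± 0.18 (SE, n = 3 per arm, adjusted p = 4.2e-05) at 8 h. It was -1.51 ± 0.17 (adjusted p = 2.6e-07) at 24 h and -1.08 ± 0.17 (adjusted p = 2.4e-05) at 48 h, against -0.26 ± 0.17 (adjusted p = 1.0) at 0 h. Within the arms, MYLK changed from 0 h to 8 h by 0.26 ± 0.17 in untreated cells (adjusted p = 0.26) and by -0.62 ± 0.18 in the TGFβ1 arm (adjusted p = 0.0083). The difference between these 2 changes, -0.87 ± 0.25, did not pass the threshold (adjusted p = 0.022). Without the 4 libraries that stood apart this difference was -0.91 and passed (adjusted p = 0.0031), whereas the change within the TGFβ1 arm was -0.49 and did not (adjusted p = 0.011). From 0 h to 48 h MYLK rose in untreated cells by 0.71 ± 0.17 (adjusted p = 0.00096) and changed by -0.12 ± 0.18 in the TGFβ1 arm (adjusted p = 0.58). In the main MYLK transcript 4.07% of the 31-base stretches also occur in transcripts of other genes, mostly of the pseudogene MYLKP1.

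MYL9 was the only one of the 4 light chain members that differed between the arms by the F-test, and it rose with time in both arms. The untreated values were 7.56, 7.60 and 7.17 TPM at 0 h, 7.81, 9.15 and 7.14 TPM at 8 h, 11.9, 10.8 and 14.1 TPM at 24 h and 21.7, 20.5 and 19.8 TPM at 48 h. The TGFβ1 values were 8.89, 6.80 and 7.89 TPM at 0 h, 10.5, 10.3 and 9.79 TPM at 8 h, 17.3, 15.8 and 17.6 TPM at 24 h and 35.9, 34.5 and 30.0 TPM at 48 h. All TGFβ1 libraries lay above all untreated libraries at 8, 24 and 48 h, and the arms overlapped at 0 h, with a log2 difference of 0.12 ± 0.11 (adjusted p = 1.0). The mean TPM was 1.27-fold higher at 8 h, 1.38-fold at 24 h and 1.62-fold at 48 h. The log2 difference was 0.41 ± 0.10 (SE, adjusted p = 0.0037) at 8 h, 0.50 ± 0.09 (adjusted p = 0.00011) at 24 h and 0.73 ± 0.08 (adjusted p = 1.5e-07) at 48 h. The change of this difference from 0 to 8 h, 0.29 ± 0.15, did not pass (adjusted p = 0.26). The increase from 24 to 48 h, 0.23 ± 0.12, did not pass (adjusted p = 0.23). From 0 to 48 h MYL9 rose by 1.40 ± 0.10 on the log2 scale in untreated cells and by 2.00 ± 0.09 in the TGFβ1 arm (adjusted p = 6.3e-11 and 6.4e-14). The call at 8 h was lost with library totals (adjusted p = 0.011) and on TPM values (adjusted p = 0.023 to 0.027). It was also lost when any of 4 of the 6 libraries at 8 h was left out, untreated replicate 1 or 3 or TGFβ1 replicate 1 or 2 (log2 difference 0.37 to 0.40, adjusted p = 0.015 to 0.024), while the calls at 24 and 48 h held without each library.

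MYH9, the heavy chain of myosin IIA, differed from untreated cells in opposite directions at 8 h and at 48 h. At 0 h it stood at 343, 301 and 318 TPM without and 312, 297 and 347 TPM with TGFβ1. At 8 h it stood at 292, 288 and 291 TPM without and at 394, 384 and 363 TPM with TGFβ1, so the arms were apart by 1.31-fold. At 24 h the arms overlapped, with 362, 338 and 368 TPM against 386, 346 and 381 TPM. At 48 h the order had turned, with 385, 355 and 345 TPM in untreated cells and 312, 303 and 295 TPM in the TGFβ1 arm. The log2 difference was 0.44 ± 0.06 (SE, adjusted p = 2.1e-05) at 8 h, 0.09 ± 0.06 (adjusted p = 0.27) at 24 h and -0.23 ± 0.07 (adjusted p = 0.0062) at 48 h. Its change from 0 to 8 h was 0.42 ± 0.09 and passed (adjusted p = 0.0027), with MYH9 the 1 member to do so against 7.91% of all genes. In the TGFβ1 arm MYH9 rose by 0.24 ± 0.06 from 0 to 8 h (adjusted p = 0.0054, and 0.044 without replicate 2 at 0 h) and fell by 0.37 ± 0.07 from 24 to 48 h (adjusted p = 0.00013). The further changes of the difference, -0.35 ± 0.09 from 8 to 24 h and -0.33 ± 0.09 from 24 to 48 h, missed the threshold (adjusted p = 0.015 and 0.018; 0 members and 6.7% of all genes passed from 8 to 24 h) but passed without the 4 libraries that stood apart, at -0.33 and -0.34 (adjusted p = 0.00074 and 0.00047). The call at 48 h was lost without any of 5 of the 6 libraries at that time (adjusted p = 0.011 to 0.038, the exception being untreated replicate 3). With 4 reference genes as library size the difference at 48 h turned to 0.12 (adjusted p = 0.022), under a scaling that moved the median of all genes by 0.34 at 48 h and by 0.43 at 24 h.

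MYH10, the heavy chain of myosin IIB, differed only at 48 h and by little. On the log2 scale of CPM, counts relative to library size, its untreated libraries lay at 5.58, 5.53 and 5.49 at 48 h and its TGFβ1 libraries at 5.27, 5.36 and 5.27. The groups did not overlap on that scale, and the difference was -0.23 ± 0.04 (SE, adjusted p = 0.00012). In TPM, however, the same libraries stood at 13.3, 11.7 and 12.5 without and at 11.9, 11.9 and 11.5 with TGFβ1, and the arms overlapped. The call was lost on TPM and on length-scaled counts (log2 difference -0.06 to -0.08, adjusted p = 0.60 to 0.69). The F-test call was lost there too (adjusted p = 0.63 to 0.85), and with 4 reference genes as library size the difference at 48 h turned to 0.12 (adjusted p = 0.25). In the fit on counts the difference changed by -0.24 ± 0.06 from 24 to 48 h (adjusted p = 0.0093), with MYH10 the 1 member to do so against 9.14% of all genes, and it was lost in 18 of the 24 fits that left out 1 library and without the 4 libraries that stood apart (adjusted p = 0.011). MYH10 rose from 24 to 48 h in both arms, by 0.47 ± 0.04 in untreated cells and by 0.23 ± 0.04 in the TGFβ1 arm (adjusted p = 1.9e-08 and 0.00032). MYH14, the heavy chain of myosin IIC, was scarce, with 27.0 to 114 estimated counts a library, and its F-test gave an adjusted p of 0.10.

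**Figure D2:**
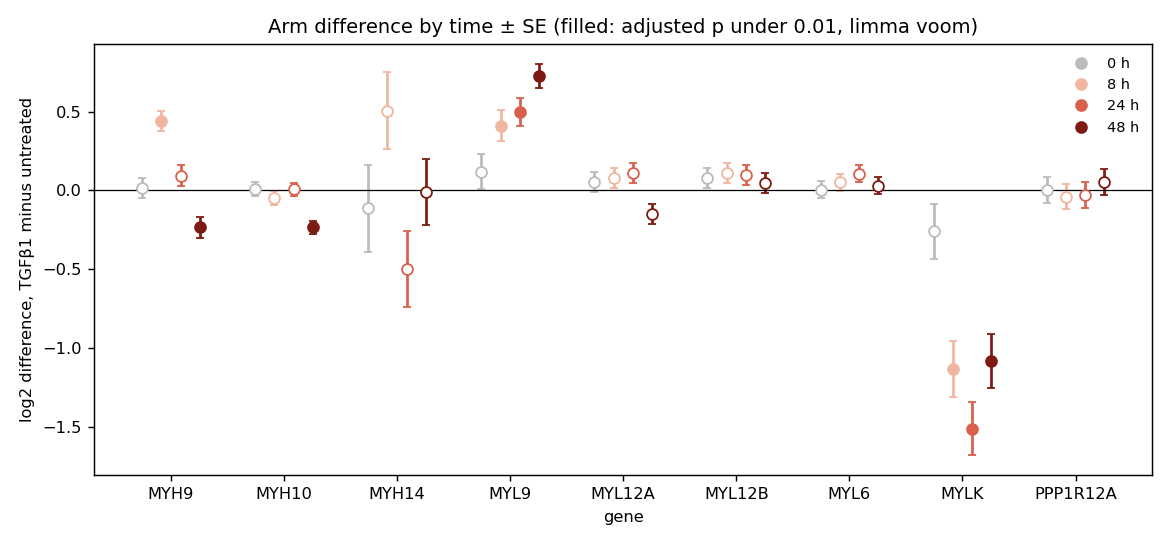
Log2 difference between the arms (vertical axis, TGFβ1 minus untreated, limma voom on counts) for the 9 genes at 0, 8, 24 and 48 h, with bars of 1 SE and filled points where the adjusted p was under 0.01. MYLK is near -1.1 to -1.5 from 8 h on, MYL9 goes from 0.41 to 0.73, and MYH9 goes from 0.44 at 8 h to -0.23 at 48 h.

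MYL12A and MYL12B, which bind the same heavy chains as MYL9, did not differ between the arms by the F-test (adjusted p = 0.069 and 0.21), although MYL12A passed without the 4 libraries that stood apart (adjusted p = 0.0014), with a log2 difference of -0.15 at 48 h (adjusted p = 0.00092). They moved in opposite directions with time in both arms. In untreated cells MYL12A stood at 372, 429.7 and 382 TPM at 0 h and at 616, 609.8 and 626 TPM at 48 h, and MYL12B went from a mean of 548 ± 45.4 TPM (SD, n = 3) to 462 ± 8.82 TPM. In the TGFβ1 arm MYL12A went from 413 ± 54.8 to 562 ± 18.3 TPM and MYL12B from 572 ± 61.2 to 469 ± 21.2 TPM. MYL12A thus took over from MYL12B as the most abundant regulatory light chain gene. From 0 to 48 h MYL12A rose by 0.58 ± 0.06 and 0.38 ± 0.06 on the log2 scale in untreated and TGFβ1 cells, and MYL12B fell by 0.33 ± 0.06 and by 0.37 ± 0.06 (all with an adjusted p under 0.01). Of the summed TPM of the 3 regulatory light chain genes, MYL12A held 41.0 to 42.2% of the untreated libraries and 41.0 to 42.3% of the TGFβ1 libraries at 0 h. At 48 h it held 55.8 to 56.5% of the untreated and 52.5 to 53.3% of the TGFβ1 libraries, so the arms were apart at 48 h, a comparison chosen after its values were seen and not tested. MYL9 went from 0.79% to 1.88% of this sum in untreated cells and from 0.80% to 3.15% in the TGFβ1 arm. In the main transcripts of MYL12A and MYL12B 22.7% and 22.9% of the 31-base stretches also occur in transcripts of other genes, each with the other and with processed pseudogenes. Their single values are therefore less certain, and the F-test on their summed counts gave an adjusted p of 0.21.

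MYL6, the essential light chain, did not pass between the arms. It ranged from 1208 to 1362 TPM at 0 h and from 1111 to 1145 TPM at 48 h, and its log2 differences between the arms lay between 0.00 and 0.10, none past the threshold. It fell from 0 to 48 h by 0.24 ± 0.05 in untreated cells and by 0.22 ± 0.05 in the TGFβ1 arm (adjusted p = 0.00059 and 0.0016). With 4 reference genes as library size the changes of MYL6 and MYL12B in the TGFβ1 arm turned upward, to 0.38 and 0.23. The exon printed above was read from 4 transcripts that hold it and 5 that skip it, which made up 89.5 to 93.5% of MYL6 TPM. The exon was included in 29.2 to 34.8% of that TPM, so the form without it prevailed in every library. Inclusion was 0.62 percentage points higher with TGFβ1 over 8, 24 and 48 h (two-sided exact permutation test within time points, p = 0.34).

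PPP1R12A, which carries the phosphatase to myosin, did not differ between the arms on counts (F-test adjusted p = 0.89, log2 differences between -0.04 and 0.05). Its mean was 29.6 ± 0.232 TPM in untreated cells and 29.7 ± 1.47 TPM with TGFβ1 at 8 h. At 48 h the TPM values were 28.5, 31.8 and 31.2 without and 34.6, 35.2 and 36.0 with TGFβ1, which did not overlap. PPP1R12A-212 and PPP1R12A-219, transcripts with a retained intron, rested on means of only 23.2 and 38.5 estimated counts a library. At 48 h they held 13.9% and 10.4% of this TPM with TGFβ1 and 7.42% and 5.54% without. Their part in the separation in TPM was not tested. Over all members, TPM of the TGFβ1 libraries lay fully above the untreated ones for 4 genes at 8 h, 2 at 24 h and 2 at 48 h, against 16.3%, 17.2% and 24.5% of all genes. They lay fully below for 1, 2 and 3 genes, against 31.2%, 23.2% and 30.7%.

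Within the untreated arm none of the 9 members changed from 0 to 8 h by limma voom (4519 genes or 26% did), and in the TGFβ1 arm MYH9, MYL9 and MYLK did (33.9%). From 24 to 48 h 4 members changed in untreated cells (MYH10, MYL9, MYL12A and MYL12B, against 28.5% of all genes) and 5 in the TGFβ1 arm (MYH9, MYH10, MYL6, MYL9 and MYL12B, against 25.8%). From 0 to 48 h 7 members changed in untreated cells and 6 in the TGFβ1 arm, against 55.2% and 58% of all genes. MYH10, MYH14, MYL6, MYL9, MYL12A and MYL12B changed in both arms, and MYLK in untreated cells. Without the 4 libraries that stood apart 1 member changed in each arm from 0 to 8 h, MYH9 in untreated cells (-0.24, adjusted p = 0.00022), and MYH14 in untreated cells no longer passed from 0 to 48 h (adjusted p = 0.019).

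Ratios between members do not depend on how libraries are scaled to each other, and 5 were compared in TPM with an exact two-sided permutation test that exchanged labels within 8, 24 and 48 h (8000 relabellings, smallest p 0.00025, Benjamini-Hochberg over the 5). The TPM of MYLK sums all its transcripts, of which the long MYLK-202 held 30.1 to 58.3% over the 24 libraries. The ratio of MYLK to the phosphatase subunit PPP1R12A was lower with TGFβ1. Its log2 value lay between -0.62 and -0.06 in untreated and between -1.86 and -1.17 in TGFβ1 libraries over these times, with no overlap at 8, 24 or 48 h (difference -1.19 ± 0.07 SE, exact permutation p = 0.00025, the smallest possible, adjusted p = 0.0013). At 0 h it overlapped, with a difference of -0.23. The ratio of MYL9 to MYL12A plus MYL12B was higher by 0.48 ± 0.09 (exact permutation p = 0.0013, adjusted p = 0.0031), with a difference of 0.30 at 8 h, 0.38 at 24 h, where the arms overlapped, and 0.76 at 48 h. The other ratios did not pass over the 3 times, with -0.15 ± 0.06 for MYH10 to MYH9 (adjusted p = 0.22, but -0.19 and 0.019 on counts without length correction), -0.03 ± 0.07 for regulatory light chains to heavy chains and -0.04 ± 0.03 for MYL6 to heavy chains (adjusted p = 0.74 for both).

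In TPM the means of these last ratios covered opposite differences at 8 h and 48 h. MYL6 to heavy chains stood at 2.06 to 2.07 on the log2 scale in untreated and at 1.64 to 1.78 in TGFβ1 cells at 8 h. At 48 h it stood at 1.52 to 1.64 in untreated and at 1.80 to 1.89 in TGFβ1 cells. Light chain RNA was thus lower relative to heavy chain RNA with TGFβ1 at 8 h and higher at 48 h, when MYH9 stood above and then below its untreated level. MYL6 itself differed between the arms by 0.05 and 0.03 on the log2 scale of the counts at these times. Protein was not measured in these libraries. Regulatory light chains to heavy chains differed by -0.32 at 8 h and by 0.20 at 48 h, and MYH10 to MYH9 by -0.53 and 0.17, without overlap of the arms at these times. In the fit on counts, however, MYH9 and MYH10 differed alike at 48 h, by -0.23 each. A gap of MYH10 to MYH9 at that time was therefore seen in TPM only. With 3 libraries against 3 an exact permutation test at 1 time cannot give a p below 0.1, and the ratios at single times were not tested.

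**Figure D3:**
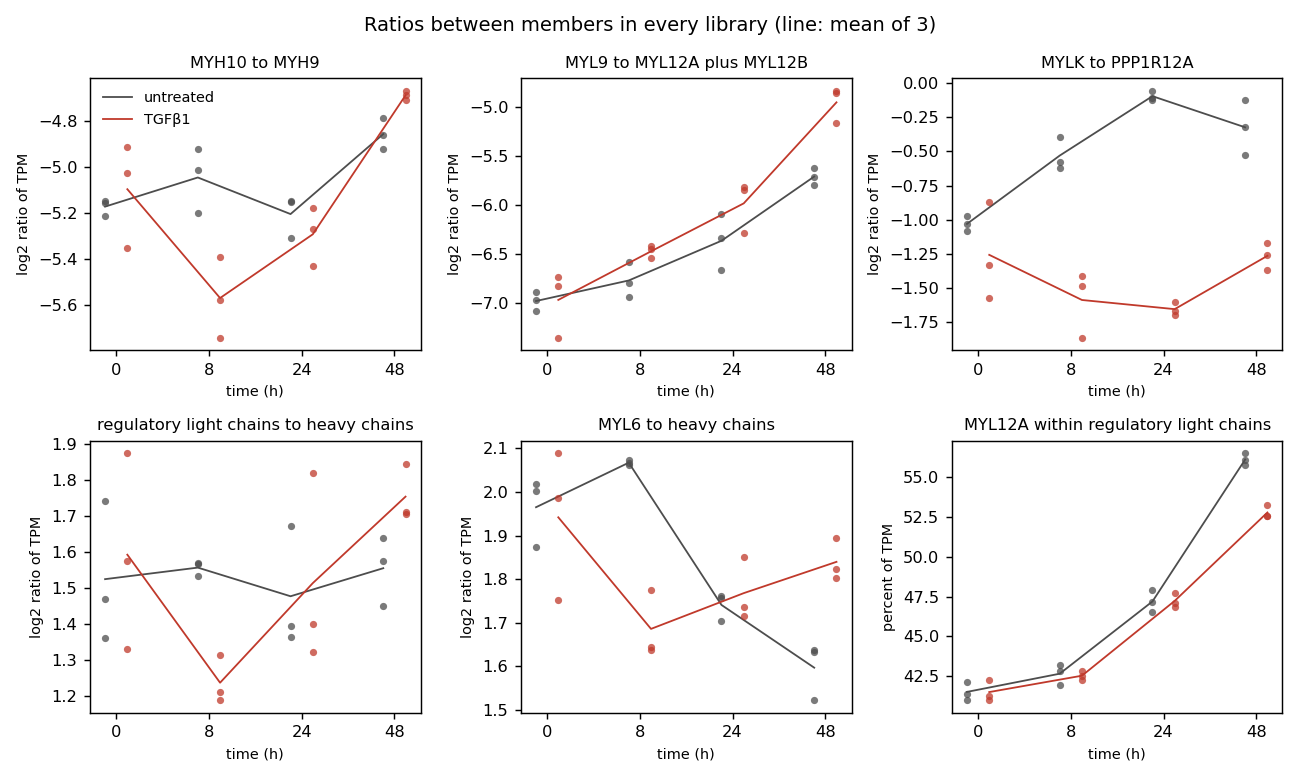
Log2 ratios of TPM between members, and MYL12A as a percentage of the regulatory light chain TPM (vertical axes, not from 0), at 0, 8, 24 and 48 h (evenly spaced on the horizontal axis) in every untreated (grey) and TGFβ1 (red) library with lines through the means of 3. MYLK to PPP1R12A separates the arms from 8 h on, and MYL12A rises from near 41% to over 52% in both arms.

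Transcript shares were taken as the percentage of a gene's TPM, for 23 transcripts or sets of transcripts with identical values that reached 10% in some group, and 4 differed between the arms at an adjusted p under 0.05 (exact permutation test as above, adjusted over the 23). The long transcript MYLK-202 (chr3:123610049-123884332), which encodes the full kinase, held 34.6 to 42.6% of MYLK TPM in untreated and 30.1 to 32.2% in TGFβ1 cells at 8 h. At 48 h it held 50.8 to 56.1% and 32.1 to 37.2%. The arm difference in its share was -11.8 percentage points over the 3 times (exact permutation p = 0.0015, adjusted p = 0.012), or -9.06 points as a share of estimated counts (adjusted p = 0.045), and the arms overlapped at 0 and 24 h. MYLK-202 was therefore lower with TGFβ1 both as a share and through the lower total of the gene. Other long coding transcripts of the gene, such as MYLK-201 and MYLK-203, stayed under 10% in every group and were not compared. Whether all long forms together held a lower share was not tested.

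PPP1R12A-203, the main coding transcript (chr12:79773568-79935097), differed by -6.61 percentage points (adjusted p = 0.0086), and PPP1R12A-219, a transcript with a retained intron (chr12:79793797-79798498), was higher by 7.74 (adjusted p = 0.0086). The latter rested on a mean of 38.5 estimated counts a library and is only 627 bases long, and as a share of estimated counts it differed by 1.08 points, while PPP1R12A-203 differed by -1.75 points and no longer passed (adjusted p = 0.30). At 0 h the mean shares of TPM already differed in the same directions, although the arms overlapped. PPP1R12A-203 held 46.6% in the TGFβ1 arm against 51.5% in untreated cells, and PPP1R12A-219 held 12.7% against 5.52%. Replicate 2 of the TGFβ1 arm, among the libraries that stood apart, gave the highest shares of PPP1R12A-219, 22.8% at 0 h and 19.0% at 24 h, and without the latter library the difference was 6.67 points (adjusted p = 0.0058). MYL12A-201 differed by -5.72 points (adjusted p = 0.045), but its share was already 52.6% against 59.8% at 0 h, and in 14 of 18 fits that left out 1 library it no longer passed. MYH9-201 held 97.9 to 98.9% of MYH9 TPM in all groups. MYL9-202 held 80.0 to 82.2%, with a difference of -0.06 points between the arms (exact permutation p = 0.96).

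**Figure D4:**
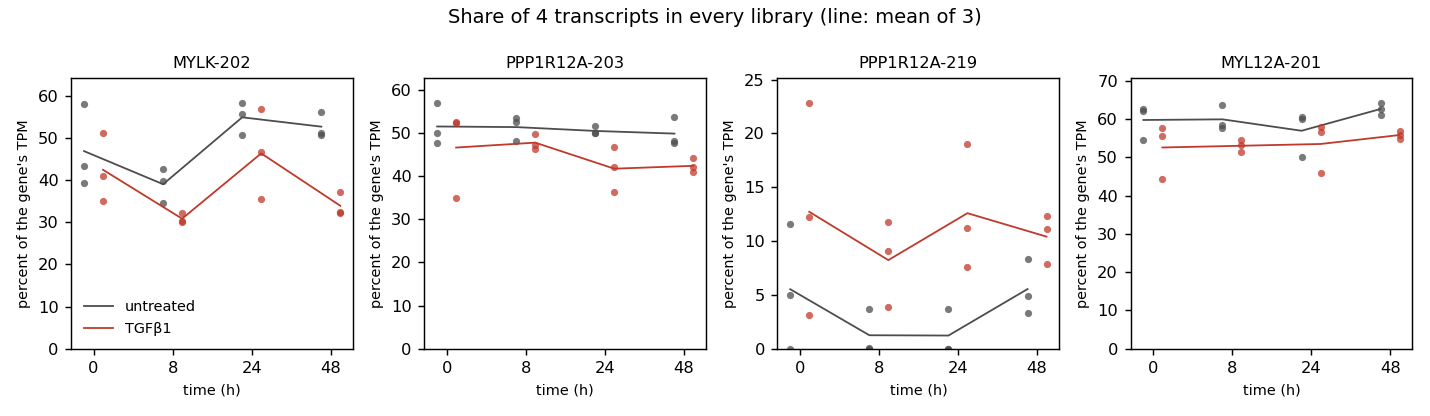
Share of 4 transcripts in the TPM of their gene (vertical axis, percent, from 0) at 0, 8, 24 and 48 h (evenly spaced on the horizontal axis) in every untreated (grey) and TGFβ1 (red) library with lines through the means of 3. MYLK-202 is lower with TGFβ1 at 8 and 48 h. At 0 h the means of MYLK-202, PPP1R12A-203 and MYL12A-201 are already lower in the TGFβ1 arm, and that of PPP1R12A-219 is higher.

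The other genes that act on myosin II were taken from a list of 77, of which 62 were tested. By the F-test 23 were higher and 12 lower with TGFβ1 by their mean over 8, 24 and 48 h, and 27 did not pass. That is 56.5% called, against 42.6% of all genes, and the median log2 difference was 0.08 against -0.02 over all genes. Among 16 other light chain kinases 9 were higher and 2 lower, 68.8% called. MYLK2, the skeletal muscle light chain kinase, was higher by 1.18 ± 0.16 on the log2 scale and DAPK1, a death-associated kinase that phosphorylates the same chain, was lower (-0.87 ± 0.06, adjusted p = 3.0e-10). CIT, a kinase of cytokinesis, went from -0.17 at 8 h and -0.28 at 24 h to 0.49 at 48 h.

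Of 10 tested genes of the phosphatase and its inhibitors 4 were higher and 1 lower, 50% against 42.6% of all genes. MPRIP, which binds the phosphatase, was higher by 0.48 ± 0.03 and PPP1R14B, a phosphatase inhibitor, by 0.58 ± 0.06.

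Of 12 filament partners 6 were lower and 2 higher, 66.7% called against 42.6% of all genes. LIMCH1, which binds and activates myosin IIA, had log2 differences of -0.25 at 8 h and -0.80 at 48 h, and S100A4, which takes myosin IIA filaments apart, of -0.30 and -0.82. Of 11 heavy chains of muscle and related genes only 4 had enough counts, and MYH15 alone passed (25%), with 1.03 at 24 h and 1.55 at 48 h. Of 9 other light chains 2 were tested, and MYL5 was lower (-0.32 ± 0.05), 1 of 2 or 50%.

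**Figure D5:**
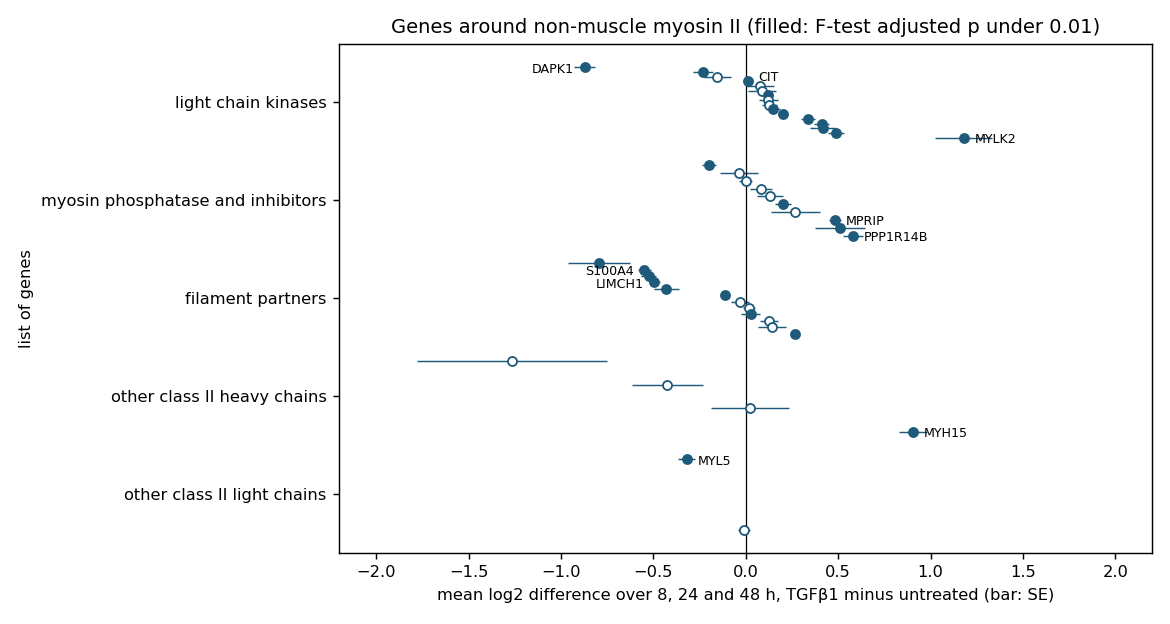
Mean log2 difference between the arms over 8, 24 and 48 h (horizontal axis, TGFβ1 minus untreated, bars of 1 SE) for tested genes around myosin II in 5 lists (vertical axis), filled where the F-test gave an adjusted p under 0.01. MYLK2 lies at 1.18, and 6 of the 12 filament partners are filled to the left of 0.

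Genes whose log2 CPM ran most like those of a member over the 24 libraries were RHOF, CYFIP1 and B4GALT1 for MYH9 (Pearson r = 0.79, 0.78 and 0.78). For MYH10 they were EHF, PTPRM and CXCL8 (r = 0.98, 0.97 and 0.97), and for MYL9 FAM171A2, MMP11 and COL9A2 (r = 0.99, 0.98 and 0.98). These r describe libraries that share arms and times.

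Markers of other cell types were read beside these results. Of 5 epithelial markers KRT8 and KRT18, keratins of simple epithelia, lay at 375 to 963 and 406 to 989 TPM. EPCAM lay at 21.6 to 37.0 TPM and CDH1 at only 0.969 to 5.74 TPM. At 48 h KRT8 stood at 926 to 963 TPM in untreated and 798 to 824 TPM in TGFβ1 cells. KRT18 and EPCAM were also lower with TGFβ1 at 48 h without overlap, while CDH1 overlapped between the arms. Of 7 squamous markers KRT5, KRT14, KRT6A and DSG3 stayed below 1 TPM in every library, while TP63 lay at 7.69 to 37.5 TPM. The expressed ones did not overlap between the arms at 48 h, TP63 with 36.0 to 37.5 TPM in untreated and 26.1 to 27.2 TPM in TGFβ1 cells, SOX2 with 4.68 to 5.56 and 0.372 to 0.482 TPM and PKP1 with 15.6 to 16.3 and 33.6 to 35.1 TPM. The keratin KRT17 stood at 4.71 to 5.87 TPM in untreated and at 69.3 to 71.4 TPM in TGFβ1 cells at 48 h. Of 6 smooth muscle markers DES, MYOCD and MYH11 stayed below 1 TPM, and the sum of the 6 overlapped between the arms at 48 h, with 3.60 to 3.84 TPM in untreated and 3.49 to 3.92 TPM in TGFβ1 cells. Its members did not all differ one way, since ACTA2 lay lower with TGFβ1 (1.94 to 2.12 against 0.555 to 0.986 TPM) and LMOD1 higher (0.441 to 0.487 against 0.660 to 0.786 TPM). The sum of 4 fibroblast markers, led by COL1A1, lay at 192 to 207 TPM in untreated and at 2093 to 2391 TPM in TGFβ1 cells at 48 h. The higher values were those of COL1A1 (152 to 166 against 2059 to 2359 TPM) and PDGFRB (4.63 to 5.80 against 20.6 to 21.5 TPM), while DCN (11.3 to 13.4 against 1.17 to 1.82 TPM) and LUM (22.4 to 24.1 against 7.34 to 10.7 TPM) lay lower. The part of these markers in the results was not tested. Fewer cells of a type and less RNA per cell cannot be told apart in such libraries.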

How the data were processed

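RNA-Seq reads of 24 libraries were quantified by the authors with kallisto 0.43.0 against GRCh38 (Ensembl release 79), and 173259 transcripts were deposited per library. The deposited estimated counts are not normalized, and the deposited TPM values are corrected for length and scaled to a common total per library. The 155518 transcripts matched to GENCODE release 44 were summed per gene and 17741 were left out. The effective lengths deposited by the authors served only for length-scaled counts.

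Gene sums, rounded, were tested where 3 or more libraries reached 10 estimated counts, with limma 3.58.1 (voom weights, TMM factors, 1 mean per group, R 4.3.3), with edgeR 4.0.16, DESeq2 1.42.0 and other scalings, values, filters, libraries and thresholds as alternatives. Sharing of 31-base stretches was read from release 44 sequences. Scripts were tested on simulated data. Ratios and shares used exact permutation tests. The members and gene lists were chosen with earlier results of these data known. Named were all members, in each list the 2 called genes of smallest F-test p and any called gene changed 2-fold, the 3 protein-coding genes most like MYH9, MYH10 or MYL9, and transcripts with 10% of a gene's TPM. Some genes of the pathway list enter its totals but are not reported here. Replicates of a group were compared for duplicates, and none agreed within sampling noise (chi-square per gene 3.17 to 60.6 over 24 pairs).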

Additional observations from a re-analysis of the deposited data

Results flagged for a closer look

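The difference between the arms itself differed between time points for 2 members. For MYH9 the difference at 8 h minus that at 0 h was 0.42 ± 0.09 on the log2 scale (limma voom, adjusted p = 0.0027), and it passed in 23 of the 24 fits that left out 1 library, the exception being the one without untreated replicate 1 at 0 h (adjusted p = 0.011). For MYH10 the difference at 48 h minus that at 24 h was -0.24 ± 0.06 (adjusted p = 0.0093), and it passed in 6 of these 24 fits.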

How the results depend on the processing

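Of the values of single genes and transcripts computed under alternatives, 4912 kept their direction and their side of the threshold, 135 no longer passed and 76 passed in addition. A further 199 changed sign without passing under the main setting or the alternative, and 15 changed sign and passed under at least 1 of them. The causes were not tested. With 4 reference genes as library size 7 members passed the F-test and 7 passed at 24 h, 46 genes of the pathway list passed at 48 h, 3 members changed in their difference from 8 to 24 h and 2 from 0 to 8 h in untreated cells. That scaling turned MYH10 to 0.19 in the mean over 8, 24 and 48 h, and MYH9 and MYH10 to 0.12 each at 48 h. It turned the change from 24 to 48 h to 0.47 for MYH9, 0.36 for MYL6 and 0.28 for MYL12B in untreated cells and to 0.051, 0.19 and 0.13 in the TGFβ1 arm. From 0 to 48 h in the TGFβ1 arm it gave 0.42 for MYH9, 0.38 for MYL6, 0.23 for MYL12B and 0.54 for PPP1R12A. Library totals moved the median of all genes by -0.11 at 24 h.

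On TPM values (pseudocount 1 or 0.1) 12 genes of the pathway list passed at 8 h, 2 members changed in their difference from 0 to 8 h and 0 from 24 to 48 h, 1 member changed in untreated cells from 0 to 8 h and 2 from 24 to 48 h, and 3 in the TGFβ1 arm from 24 to 48 h. Length-scaled counts gave 2 members for the change of the difference from 0 to 8 h, 0 from 24 to 48 h, 1 in each arm from 0 to 8 h and 2 in untreated cells from 24 to 48 h. With only the libraries of the tested times 5 members passed at 8 h, 1 at 24 h, 18 genes of the pathway list at 24 h, and 0 members for the changes of the difference from 0 to 8 h and 24 to 48 h and within the TGFβ1 arm from 0 to 8 h. At an adjusted p of 0.05 the changes of the difference gave 2, 1 and 2 members and untreated cells 2 from 0 to 8 h, and DESeq2 also gave 2, 1 and 2. Library totals gave 1 member from 8 to 24 h and 0 from 24 to 48 h. Upper-quartile factors gave 0 from 24 to 48 h and 1 in the TGFβ1 arm from 0 to 8 h, as did no filter on counts. Summing MYL12A and MYL12B gave 2 members in untreated cells from 24 to 48 h and -0.033 for their change in the TGFβ1 arm from 0 to 48 h. The ratio of MYH10 to MYH9 on counts without length correction differed by -0.19 (exact permutation test, adjusted p = 0.019).

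Without the 4 libraries numbered 2 at 0 and 24 h, chosen after seeing the data, the changes of the difference gave 2, 1 and 2 members, each arm 1 from 0 to 8 h, and MYL12A a mean of -0.00041. Same-numbered libraries of the arms correlated at -0.06 to 0.26, with 4 of 12 pairs over 0.1. These 4 were replicates 1 and 2 at 0 h (0.16 and 0.24) and at 24 h (0.13 and 0.26), the times at which replicate 2 stood apart. The main fit did not take the numbers to pair the samples. With the replicate block 1 member passed for the change from 8 to 24 h, 2 from 24 to 48 h and 1 in untreated cells from 0 to 8 h.

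Leaving out 1 library gave 0 to 2 members for the change of the difference from 0 to 8 h (0 without untreated replicate 1 at 0 h, 2 without untreated replicate 2 or TGFβ1 replicate 3 at 0 h). It gave 0 to 1 from 8 to 24 h (1 without untreated replicate 2 at 24 h or TGFβ1 replicate 2 at 0 h) and 0 to 2 from 24 to 48 h. In the TGFβ1 arm from 0 to 8 h it gave 0 to 3 (0 without replicate 2 at 0 h or replicate 1 or 2 at 8 h). The ratio of regulatory light chains to heavy chains ranged from -0.079 to 0.0044, with the sign changed without untreated replicate 2 or TGFβ1 replicate 1 at 24 h. Scarce MYH14 limits what its values can show.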
